A study of Mus musculus with 12 samples.

Results

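Mouse macrophages held with the iron hormone hepcidin for 3 h were compared with macrophages held with it for 1 h, to see which transcripts kept climbing, which held their level and which decayed as the exposure went on. The comparison rests on 6 of the 12 arrays of the series, 3 titled as hepcidin at 3 h against 3 titled as hepcidin at 1 h, and all 24675 genes with a name entered it. The cells were bone marrow-derived macrophages of wild-type mice aged 8 to 10 weeks, grown from marrow with medium conditioned by L cells, which supplies the growth factor M-CSF. In every group the medium was replaced by DMEM alone, without that conditioned medium or serum, 1 h before the addition. The other 6 arrays hold the same cells with PBS at 1 h and at 3 h, also 3 each, and give the change over the same interval without the peptide. The labels give 1 µg/ml of hepcidin in one protocol and 10 µg/ml in another, which names 1 h only, so the dose is not settled. Strain, sex and the number of animals are not given in the sources used here, and whether arrays of a group stem from separate cultures is not stated. The p-values therefore cover the spread among these arrays, which could be technical in origin.

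Hepcidin is a liver peptide that binds ferroportin, the iron exporter encoded by Slc40a1, and causes its removal from the surface of macrophages. Inflammatory stimulation of macrophages sets off transcription in waves. Immediate early genes, NF-kB inhibitors and several chemokines appear first and are shut down by their own products, while transcripts that need newly made factors or chromatin opening come later, and unstable messages fall once synthesis stops.

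Arrays of a group correlated with each other at r between 0.9939 and 0.9967 across genes, and the array medians lay between 4.84 and 4.94 on the log2 scale. Hepcidin 1 h arrays correlated with hepcidin 3 h arrays at 0.9905 to 0.9933. Within the hepcidin arrays, principal component 1 held 38.4% of the variance and placed the 1 h arrays at -16.7 to -14.3 and the 3 h arrays at 11.5, 11.9 and 23.9, with replicate 3 of the 3 h group the farthest out. Of 22 macrophage identity genes on the array, 20 lay above the array median. None of 8 erythroid markers and 1 of 14 lymphocyte markers did, against 4 of 15 dendritic cell, 6 of 15 neutrophil, 6 of 14 fibroblast and 1 of 11 mast cell and basophil markers. The summed log2 level of the neutrophil markers was 72.8 to 74.6 at 1 h and 72.6 to 72.9 at 3 h, and that of the fibroblast markers 65.2 to 70.2 and 66.1 to 69.1, so these ranges overlapped. The sums ran from 74.8 to 74.9 and from 74.4 to 76.6 for dendritic cells, from 52.8 to 54.7 and from 53.1 to 55.2 for lymphocytes, from 29.9 to 30.5 and from 30.3 to 30.5 for erythroid cells, and from 41.4 to 42.4 and from 41 to 42.2 for mast cells and basophils. Among all of these marker lists the neutrophil gene Mpo (-0.62 on the log2 scale) and the mast cell gene Kit (-0.73) passed the test, both lower at 3 h. Mpo lost its call without hepcidin 1 h replicates 2 or 3 or hepcidin 3 h replicate 1, with adjusted p from 0.0901 to 0.118 in limma. Whether other cells had a part in the results was not tested, and in bulk RNA fewer cells of a type and less RNA per cell cannot be told apart.

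Between 1 h and 3 h of hepcidin the macrophages changed 1246 of 24675 genes, or 5.05%, at an adjusted p under 0.05 in limma's moderated test. Of these, 601 (2.44%) were higher at 3 h and 645 (2.61%) were lower. The cystine importer gene Slc7a11, the itaconate-producing enzyme gene Acod1 and the receptor genes Fpr2, Tarm1 and Fas stood among the largest rises, and the costimulatory ligand gene Tnfsf9, the ubiquitin ligase gene Rnf144b, the purine receptor gene P2ry1 and the lipase inhibitor gene Angptl4 among the largest falls. The rises had a median of 0.48 on the log2 scale and the falls a median of -0.46, while the median over all genes was 0.0141. In 1244 of the 1246 genes the 3 arrays of one time lay wholly above those of the other, an arrangement that 20.1% of all genes showed. The rises held 557 protein-coding genes and the falls 622. Without hepcidin 1 h replicate 2 the counts were 364 higher and 357 lower, without hepcidin 1 h replicate 3 they were 365 and 398, and without hepcidin 3 h replicate 3 they were 407 and 396. A fit on the 6 hepcidin arrays alone gave 312 and 304. The named genes Birc3, Cxcl2, Cybb, Icosl, Ifi205, Mpo, Nfkbia, Nfkbib, Nfkbid, Nlrp3, Sesn2, Spi1, Tlr4 and Tob1 missed the threshold there. Their adjusted p was 0.05 to 0.0905 in limma. So did Dkc1, Dnajb9, Ebi3, Fcgr1, Gbp7, Hspd1, Irf4, Mcl1, Mefv, Mrc1, Nlrp1b, Pdia6, Pim2 and Sdf2l1, at 0.0565 to 0.178. Cxcl2 also missed it after repeated quantile normalization (adjusted p = 0.0744), Spi1 after median centring (0.0546) and Rsad2 with array weights (0.061), all in limma.

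The same interval with PBS changed 111 genes, or 0.45%, with 51 higher (0.207%) and 60 lower (0.243%). A direct test of the difference between the hepcidin course and the PBS course was passed by 254 genes (1.03%), of which 129 (0.523%) moved upward relative to PBS and 125 (0.507%) downward. The PBS and hepcidin courses share no array, and 55 genes were called in both, 4.41% of the hepcidin calls and 49.5% of the PBS calls. Of these, 20 rose in both, 32 fell in both and 3 moved in opposite directions. The PBS counts depended on single arrays, and without PBS 1 h replicate 2 there were 7 higher and 19 lower. The difference counts fell to 83 and 61 without that array. Without each other PBS array in turn the PBS counts lay at 8 to 16 and 14 to 26, and without hepcidin 1 h replicate 2 at 26 and 34. The difference counts were 78 and 65 without hepcidin 1 h replicate 2, and 80 and 78 without replicate 3 of that group. They were 80 and 61 without PBS 3 h replicate 2, 79 and 66 without PBS 3 h replicate 3, and 76 and 83 without PBS 1 h replicate 3. Only the downward count moved that far without PBS 1 h replicate 1, to 73, or without hepcidin 3 h replicate 3, to 82. The median PBS change of the genes that rose with hepcidin was 0.13, and that of the genes that fell was -0.13.

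**Figure D1:**
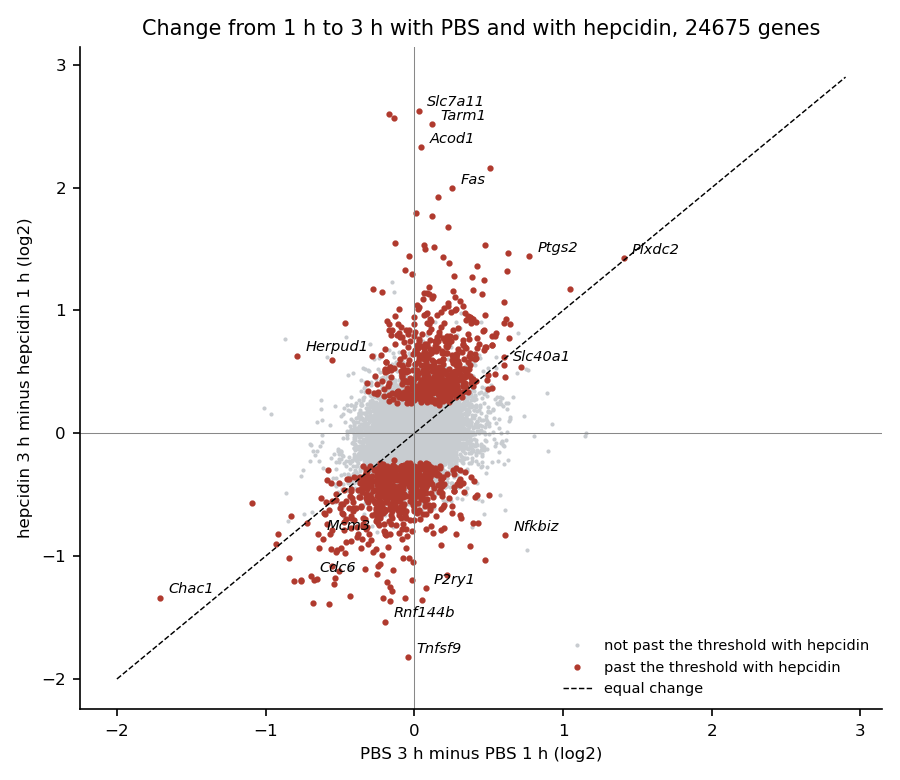
Change from 1 h to 3 h in each of 24675 genes, with PBS on the x axis and with hepcidin on the y axis, both as log2 differences of group means (3 arrays a group); red points passed limma's test for hepcidin, and the dashed line marks equal change. Slc7a11, Tarm1 and Acod1 lie high near a PBS change of 0, Chac1 and Slc40a1 lie near the dashed line, and Herpud1 lies on opposite sides of 0.

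Among the largest rises of named genes was that of Slc7a11 (Entrez gene 26570), the cystine importer that feeds glutathione synthesis. Its log2 values were 6.31, 5.75 and 5.94 at 1 h and 8.82, 8.30 and 8.75 at 3 h of hepcidin, against 5.69, 5.47 and 5.78 with PBS at 1 h and 5.96, 5.63 and 5.44 with PBS at 3 h. All 3 hepcidin arrays of 3 h stood far above the other 9. The rise was 6.18-fold (log2 change 2.63, SE 0.18, adjusted p = 6.01e-06 in limma), and the difference from the PBS course was 2.60 (adjusted p = 0.000417).

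Acod1 (Entrez gene 16365), which makes the antimicrobial and signalling metabolite itaconate, was already raised at 1 h and went on. It read 8.96, 8.75 and 8.58 at 1 h and 11.12, 11.13 and 11.03 at 3 h, while the 6 PBS arrays lay between 4.84 and 5.44. The further rise was 5.03-fold (log2 change 2.33, SE 0.15). The groups were well apart, and the 3 h arrays differed from each other by less than those of 1 h.

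Tarm1 (Entrez gene 245126), an activating receptor of myeloid cells, read 6.73, 6.52 and 6.42 at 1 h and 9.36, 8.99 and 8.87 at 3 h, a 5.72-fold rise. At 1 h, 2 of its 3 arrays lay within the range of the PBS arrays, 6.09 to 6.66. Fas (Entrez gene 14102), the death receptor of the TNF receptor family, went from 7.92, 7.55 and 7.17 to 9.62, 9.52 and 9.50, or 3.99-fold, with PBS values of 6.46 to 6.97. In Fas the 1 h arrays spread widely and the 3 h arrays closely.

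Fpr2, a receptor for formyl peptides and other chemoattractants, read 4.52, 5.12 and 4.22 at 1 h and 6.78, 7.71 and 7.16 at 3 h. Cxcl3, a chemokine for neutrophils, read 3.65, 4.59 and 3.61 at 1 h and 5.75, 6.87 and 6.95 at 3 h. The 2 time groups did not overlap in either gene, although both spread over about 1 log2 unit at 3 h. Their 1 h means lay under 4.88, the median level over the arrays, at which background adds to the reading, so only the log2 changes are given, 2.60 (SE 0.25) for Fpr2 and 2.57 (SE 0.30) for Cxcl3. In all, 73 of the 601 rises started below that level and 24 of the 645 falls ended below it.

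The other large rises came from varied groups. The paired membrane genes Tmem176b and Tmem176a rose by 2.16 and 1.53 on the log2 scale, and the lipid receptor Gpr18, dim at 1 h, by 1.92. The organic anion transporter Slco3a1 rose 3.41-fold (PBS change 0.12), and the fatty acid receptor Gpr84 rose 2.93-fold. Ets2, a transcription factor downstream of MAP kinases, rose 2.89-fold and Lox, the enzyme that crosslinks collagen and elastin, 2.87-fold. Ifi205, a nucleic acid sensor of the p200 family, rose by 1.80, with 1 h arrays spread from 4.38 to 5.51, and the guanylate-binding protein gene Gbp5 by 1.68. All of these but Ifi205 also passed the test of the difference from the PBS course (Ifi205 difference 1.78, adjusted p = 0.108 in limma).

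**Figure D2:**
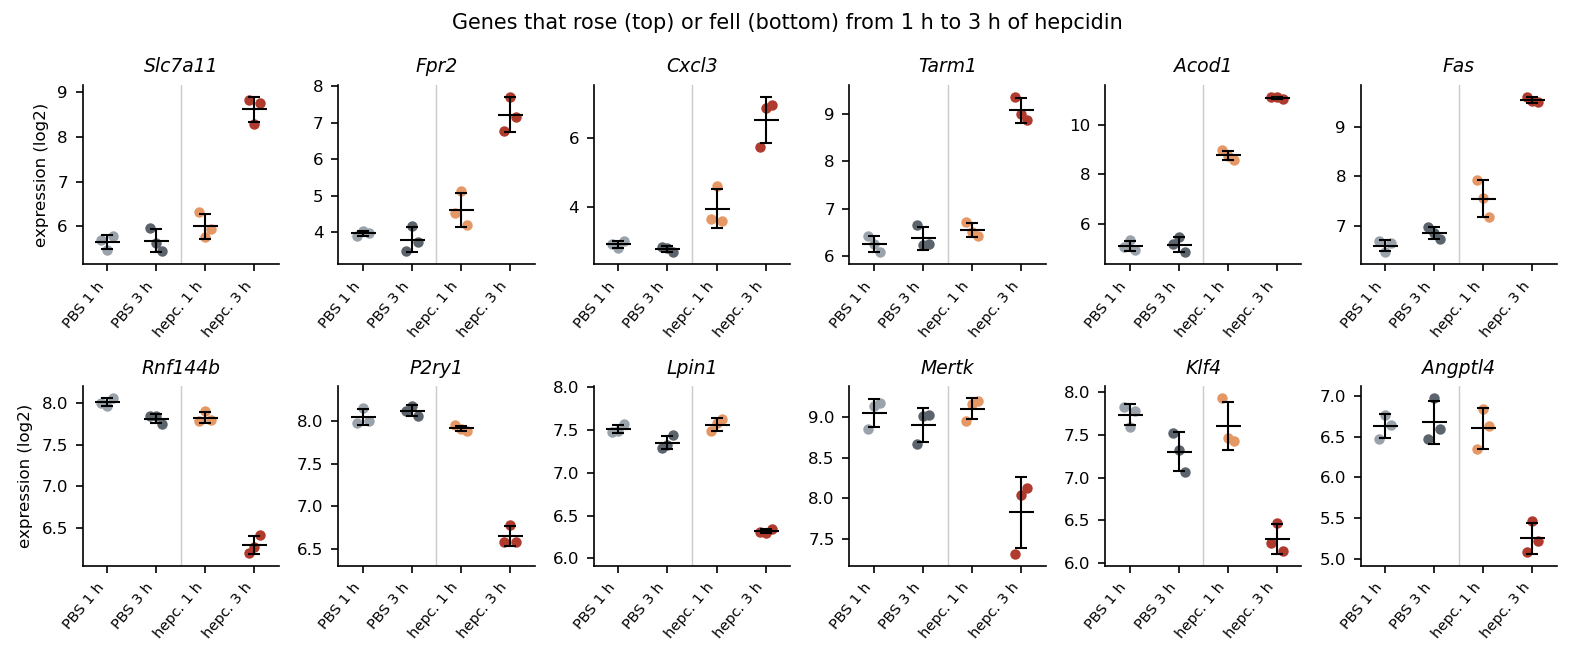
Log2 expression of 6 genes that rose (top row) and 6 that fell (bottom row) from 1 h to 3 h of hepcidin; each point is 1 array, bars are the mean ± SD of 3 arrays, and the y axes differ between panels and do not start at 0. In every panel the 3 dark red points of hepcidin at 3 h stand apart from the other 9 arrays.

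The largest falls were smaller than the largest rises. Rnf144b (Entrez gene 218215), an E3 ubiquitin ligase of the RING-between-RING class, read 7.78, 7.90 and 7.79 at 1 h and 6.20, 6.27 and 6.41 at 3 h of hepcidin, while PBS arrays stayed between 7.75 and 8.06. It fell 2.89-fold (log2 change -1.53, SE 0.07, adjusted p = 1.51e-06 in limma) with no overlap between any hepcidin 3 h array and another group. Lpin1, a phosphatidate phosphatase of lipid synthesis, read 7.48, 7.58 and 7.63 and then 6.31, 6.30 and 6.34, a 2.37-fold fall.

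P2ry1, a receptor for extracellular ADP, read 7.95, 7.90 and 7.89 at 1 h and 6.59, 6.79 and 6.58 at 3 h. It fell 2.40-fold, and its PBS arrays lay between 7.98 and 8.18. Angptl4, a secreted inhibitor of lipoprotein lipase, read 6.35, 6.85 and 6.63 and then 5.08, 5.46 and 5.22, or 2.56-fold lower. The groups were apart in both genes, and replicate 2 was the highest array of Angptl4 in every group. Map2k6, a kinase that activates p38, fell by 1.34 on the log2 scale, with replicate 3 at 3 h at 4.75 well below 5.45 and 5.49. Snx24, a sorting nexin, fell by 1.34, Fam214a by 1.15 and Lbh, a transcription cofactor, by 0.92, and each passed the test of the difference from PBS.

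Several falls among the largest lacked that last test. Mertk, the receptor by which macrophages engulf apoptotic cells, read 8.96, 9.16 and 9.20 at 1 h and 7.32, 8.04 and 8.12 at 3 h, 2.43-fold lower. Replicate 1 was the lowest in each group, also with PBS. Its difference from the PBS course was -1.13 (adjusted p = 0.0734 in limma). Klf4, a transcription factor of monocyte differentiation, fell 2.50-fold with a PBS change of -0.43, Pde7b, a cyclic AMP phosphodiesterase, 2.62-fold with a PBS change of -0.57, and Rgs1, a regulator of G protein signalling, by 1.21 on the log2 scale with a PBS change of -0.19. Plau, the urokinase plasminogen activator, read 8.79, 8.97 and 9.26 and then 7.30, 7.73 and 7.83, but its PBS arrays also went from 8.77, 8.87 and 9.31 to 7.86, 8.31 and 8.73. Wee1, the kinase that restrains entry into mitosis, fell by 1.23 with a PBS change of -0.54, and its 3 h arrays spread from 6.59 to 7.50.

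The genes that hepcidin had raised within 1 h divided into courses. At 1 h, 138 genes (0.559%) differed between hepcidin and PBS, 130 of them higher (0.527%) and 8 lower (0.0324%). A gene raised at 1 h is called climbing or decaying here where it passed the test between 1 h and 3 h, and holding where it did not and its 95% interval lay within 1.5-fold, or 0.585 on the log2 scale, on either side. By this division 56 of the 130 (43.1%) climbed, 43 (33.1%) held, 21 (16.2%) decayed and 10 (7.69%) could not be placed. The choice of these genes and their course share the hepcidin 1 h arrays, so the counts are a description. The median change was 0.80 for climbing, -0.02 for holding and -0.69 for decaying genes, and their median PBS changes were 0.14, 0.08 and 0.08. Without hepcidin 1 h replicate 1 the holding genes numbered 26. Of the 8 genes lower at 1 h, 5 held, 1 predicted gene model fell further, Mir1933 returned upward and 1 could not be placed.

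**Figure D3:**
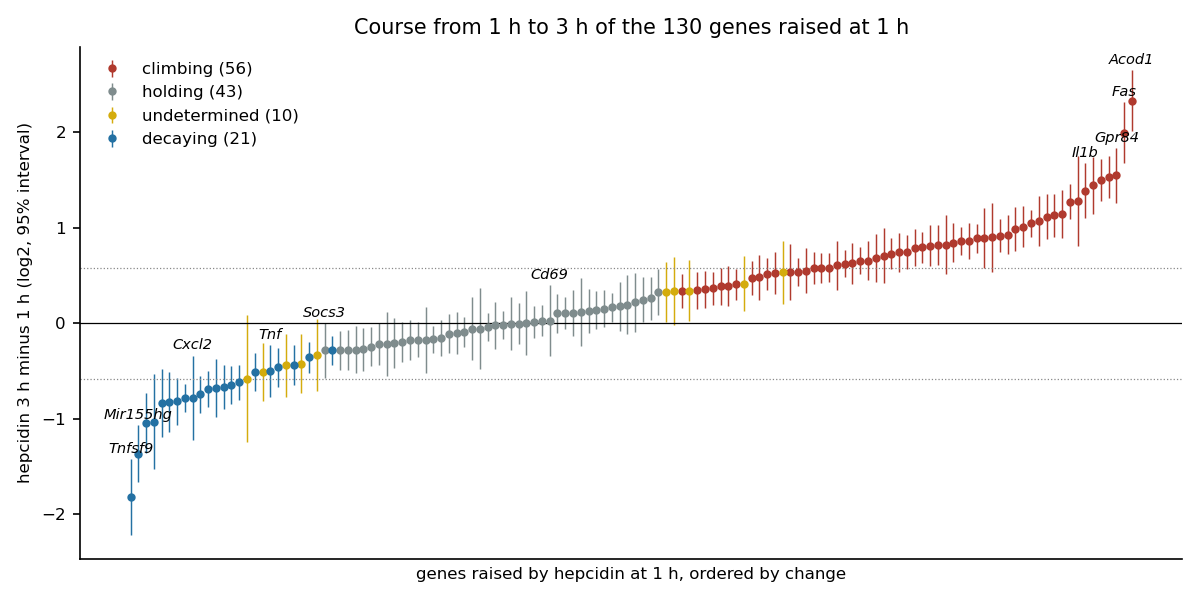
Log2 change from hepcidin 1 h to hepcidin 3 h with its 95% interval for each of the 130 genes raised at 1 h, in order of the change and coloured by course; dotted lines mark 1.5-fold on either side. The changes run from -1.82 in Tnfsf9 to 2.33 in Acod1, and the courses are ranges set by the test and the margin. Whether they form separate clusters was not tested.

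Climbing genes with the largest 1 h rises included effectors and receptors. Il1b, the pyrogenic cytokine, read 7.05, 6.71 and 6.78 at 1 h and 8.10, 8.13 and 8.47 at 3 h, 2.62-fold higher. PBS arrays lay between 3.74 and 4.34. Ptgs2, the inducible cyclooxygenase, read 8.50, 8.14 and 8.44 and then 9.54, 9.82 and 10.06, or 2.72-fold higher, and it also rose with PBS, by 0.77. The difference of its courses was 0.67 (adjusted p = 0.178 in limma). Cxcl10, a chemokine for T cells, rose 2.43-fold, the adhesion molecule gene Icam1 1.98-fold, the lipopeptide receptor Tlr2 1.61-fold and the costimulatory ligand Icosl by 0.61 on the log2 scale. Gpr84 went from 9.31, 8.76 and 8.79 to 10.40, 10.48 and 10.63.

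The holding genes with the largest 1 h rises stayed far above PBS. Cd69, an early activation antigen that holds back the receptor S1pr1, read 8.10, 7.90 and 7.79 at 1 h and 7.58, 8.27 and 8.02 at 3 h, with PBS arrays at 4.68 to 5.19. The time groups overlapped, and the change was 0.03 with a 95% interval of -0.34 to 0.40. Socs3, the feedback inhibitor of STAT3 signalling, read 7.13, 6.85 and 6.89 and then 6.48, 6.79 and 6.75, a change of -0.28 whose interval of -0.57 to 0.00 lay just inside the limit. Nfkbie, an NF-kB inhibitor, changed by 0.22, the kinase gene Pim1 by -0.20, Cflar, which restrains caspase 8, by 0.25, Pde4b by 0.12 and the chemerin-binding receptor gene Ccrl2 by -0.05, and none of these passed. Among the holding genes, 34 of 43 were still called above PBS at 3 h, a comparison in which 5.33% of all genes were called, 2.8% higher and 2.53% lower.

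Mir146 (Entrez gene 387164), the gene of a microRNA that targets Irak1 and Traf6, held too. Its transcript read 6.25, 5.77 and 5.84 at 1 h and 5.66, 5.97 and 5.62 at 3 h, with PBS arrays at 3.13 to 3.53. The array reads the gene's transcript and not the mature molecule. The main mature strand, from RefSeq on GRCm38.p6 at chr11:43374435-43374456 on the minus strand, is printed because the holding class contains its gene, and the capitals mark the seed, bases 2 to 8.
mmu-miR-146a-5p: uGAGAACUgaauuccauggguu
None of the 11 microRNA genes listed passed limma's test between 1 h and 3 h. None had an unadjusted p under 0.05, which 16.6% of all genes had. Outside that list, Mir1933 passed as higher and the host transcript Mir155hg as lower.

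Decaying genes included cytokine genes and inhibitors of NF-kB. Tnfsf9, the ligand of the costimulatory receptor 4-1BB, had the largest fall of all named genes. It read 9.17, 8.67 and 8.88 at 1 h and 6.80, 7.10 and 7.35 at 3 h, 3.53-fold lower (log2 change -1.82, SE 0.18, adjusted p = 0.000105 in limma), and PBS arrays lay between 6.14 and 6.75. The 3 h arrays stood just above the PBS arrays. The stress-induced survival gene Ier3 read 9.14, 8.62 and 8.51 and then 7.70, 7.79 and 7.65, or 2.06-fold lower, and Mir155hg, the host transcript of a microRNA, read 5.73, 5.61 and 6.16 and then 4.32, 4.49 and 4.59. In both the time groups were apart and the 3 h arrays stayed above the PBS arrays.

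Nfkbiz, which encodes an atypical IkB protein that activates secondary response genes, read 9.59, 9.51 and 9.53 at 1 h and 8.27, 8.94 and 8.92 at 3 h, 1.78-fold lower. Its PBS arrays moved the other way, from 6.18, 6.61 and 6.61 to 7.10, 7.16 and 6.97, and the difference of courses was -1.44 (adjusted p = 0.0109 in limma). Nfkbia, the main IkB inhibitor, read 11.11, 11.12 and 11.09 and then 10.64, 10.73 and 10.88. Its fall was 1.28-fold. It lost the call without hepcidin 1 h replicate 2 (adjusted p = 0.0612) and without hepcidin 3 h replicate 1 (adjusted p = 0.0541).

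Tnf, the founding cytokine of its family, read 12.20, 12.08 and 12.15 at 1 h and 11.47, 11.72 and 11.74 at 3 h, against 8.23 to 9.05 with PBS. The groups were apart, with a fall of 1.41-fold (adjusted p = 0.0405 in limma). Cxcl2, a neutrophil chemokine, read 10.39, 10.13 and 10.22 and then 9.05, 9.48 and 9.88, 1.72-fold lower (adjusted p = 0.0473). Both calls were narrow. Tnf lost its call without any 1 of the 6 hepcidin arrays or of PBS 1 h replicate 2 and PBS 3 h replicates 2 and 3, with adjusted p from 0.0542 to 0.129. Cxcl2 lost its call without any hepcidin array but replicate 3 of 3 h, and without replicates 2 and 3 of either PBS group, with adjusted p from 0.0501 to 0.139. Tnfaip3, the ubiquitin-editing inhibitor A20, fell 1.60-fold and lost its call without hepcidin 1 h replicate 3 (adjusted p = 0.0648) or hepcidin 3 h replicate 1 (adjusted p = 0.055). Of the 21 decaying genes, 12 were still called above PBS at 3 h.

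Promoter sequence was read for the genes at the ends of these courses, to show what climbing and decaying genes carry near their starts. An NF-kB motif, GGGA and CC with any 4 bases between them, was searched on both strands in the 250 bases before each RefSeq start on GRCm38.p6, in 18380 of the tested genes that had a window. It was found for 22.1% of all of them, for 21 of 47 climbing genes (44.7%), 12 of 34 holding genes (35.3%) and 6 of 16 decaying genes (37.5%). Of the genes that were not called at 1 h and rose later, 25.3% held it, and of those that fell later 30.1%. Genes differ in the number of windows, and per window the shares were 19.7% for all genes, 45.3% for climbing, 23.1% for holding, 35% for decaying, 21.6% for later rises and 23.8% for later falls. The windows below run from 15 bases before the outermost match to the base before the start, with matches in capitals. Acod1 and Cxcl3 stand for rising genes and Cxcl2 and Nfkbia for decaying ones, at chr14:103046942-103047011 (plus strand), chr5:90786013-90786100 (plus), chr5:90903787-90903898 (plus) and chr12:55492648-55492874 (minus).
Acod1: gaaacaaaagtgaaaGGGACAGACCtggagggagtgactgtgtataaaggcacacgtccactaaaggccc
Cxcl3: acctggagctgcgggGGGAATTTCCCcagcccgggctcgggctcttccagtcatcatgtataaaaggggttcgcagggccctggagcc
Cxcl2: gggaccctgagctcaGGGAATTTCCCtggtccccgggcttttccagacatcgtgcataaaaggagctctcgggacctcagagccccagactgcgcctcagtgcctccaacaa
Nfkbia: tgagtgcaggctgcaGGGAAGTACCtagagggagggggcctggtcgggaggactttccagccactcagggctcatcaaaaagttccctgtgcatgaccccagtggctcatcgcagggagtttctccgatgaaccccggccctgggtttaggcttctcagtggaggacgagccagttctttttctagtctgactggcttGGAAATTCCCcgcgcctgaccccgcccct
Cxcl2 and Cxcl3 lie near each other on chromosome 5 and share the stretch GGGAATTTCCC, which holds 2 overlapping matches, 1 on each strand, and begins 97 and 73 bases before their starts. An alignment of their 2 promoter windows had 160 identical bases, 55 mismatches and 70 gap bases. Cxcl2 decayed while Cxcl3 rose. Cxcl1, the third close relative, read 8.04, 8.02 and 8.70 and then 6.90, 7.74 and 8.39, overlapping groups that could not be placed. These transcripts are similar, so probes may in part read each other's message, and their part in the result was not tested.

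Among 16 NF-kB feedback and subunit genes, 7 rose and 4 fell (median 0.24, against 0.0141 for all genes). The shares over all genes, to be set beside this list and those below, were 2.44% higher and 2.61% lower. Some genes, such as Slc7a11 and Sesn1, stand in more than 1 list, and the lists were chosen with earlier results of these data known. The subunit gene Nfkb2 rose by 1.01 on the log2 scale and its partner Relb by 0.66. Tnip1, which works with A20, rose by 0.86, Traf1, an adaptor of TNF receptors, by 0.92, Birc3, a ubiquitin ligase of the same complexes, by 0.53 and the inhibitor Nfkbib by 0.33. Nfkbid fell by 0.51, beside Nfkbia, Nfkbiz and Tnfaip3. Upstream, Map3k8, the kinase that links NF-kB to ERK, fell by 0.78.

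Chemokine genes moved in both directions. Of 10 CXC chemokine genes, Cxcl3, Cxcl10 and Cxcl16 rose and Cxcl2 fell, and of 12 CC chemokine genes Ccl3 (0.41) and Ccl4 (0.90), which attract monocytes and T cells, rose. Ccl2, the main monocyte attractant, read 8.19, 8.07 and 8.06 at 1 h and 7.20, 7.44 and 7.36 at 3 h, and its call was lost without any 1 of the hepcidin 1 h arrays or of hepcidin 3 h replicates 1 and 3, with adjusted p from 0.0583 to 0.073 in limma. Of 24 cytokine and growth factor genes 2 rose and 1 fell (2.44% and 2.61% over all genes). Il6 changed by 0.14 (95% interval -0.05 to 0.32) at levels of 3.07 to 3.34, well below the array median.

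Surface receptors moved in both directions. Of 25 pattern recognition and adhesion receptors, 10 rose and 1 fell (median 0.29), beside 2.44% and 2.61% of all genes. Tlr1, which pairs with Tlr2, read 8.17, 8.29 and 8.17 at 1 h and 9.22, 9.43 and 9.31 at 3 h, 2.16-fold higher. The endotoxin coreceptor Cd14 rose by 0.71, Clec4e, a sensor of mycobacterial glycolipid, by 1.14 and Clec5a by 0.81, of which 0.55 was also seen with PBS. Tlr4, the endotoxin receptor, went the other way, from 10.06, 10.08 and 10.09 to 9.65, 9.74 and 9.82.

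Of 26 chemoattractant and metabolite receptors, 3 rose and 7 fell (median -0.04), beside 2.44% and 2.61% of all genes. All 10 also passed the test of the difference from PBS, which 1.03% of all genes passed. Fpr2, Gpr84 and Hcar2, the receptor for niacin and hydroxybutyrate, rose, Hcar2 2.72-fold. Cxcr4, the receptor for Cxcl12, read 10.26, 10.26 and 10.17 at 1 h and 9.13, 9.29 and 9.08 at 3 h, a 2.09-fold fall, with PBS arrays at 9.88 to 10.28. P2ry1 fell as given above, Gpr183, an oxysterol receptor, by 0.73 and S1pr1, the sphingosine phosphate receptor, by 0.81. With PBS Gpr183 changed by 0.39, so its courses differed by -1.12.

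In the TNF superfamily, 4 of 15 genes rose and 2 fell (2.44% and 2.61% over all genes). Tnfrsf1b, the second TNF receptor, read 9.83, 10.00 and 9.97 at 1 h and 11.03, 11.03 and 11.16 at 3 h, 2.20-fold higher, with all PBS arrays at or below 9.99. Tnfsf4, the OX40 ligand, rose by 0.98 and Tnfrsf21, a death receptor, fell by 0.45. Of 14 inflammasome genes 3 rose and 1 fell, with the sensor Nlrp3 at 0.71 and the endotoxin-sensing caspase gene Casp4 at 0.79. The other calls, Mefv higher and Nlrp1b lower, were lost in several fits with 1 array left out. Mefv also missed the threshold after repeated quantile normalization (adjusted p = 0.053) and after median centring (0.068), both in limma.

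Of 25 inflammatory effector and metabolic genes, 9 rose and 1 fell (median 0.11), beside 2.44% and 2.61% of all genes. Nos2, the inducible nitric oxide synthase, read 4.83, 4.63 and 4.59 at 1 h, below the array median, and 5.92, 5.87 and 5.72 at 3 h, a log2 change of 1.15 (SE 0.10), with all PBS arrays at or below 5.09. Sod2, the mitochondrial superoxide dismutase, rose 1.74-fold, and Cybb, the catalytic subunit of the phagocyte oxidase, by 0.35. Nox1, another oxidase, rose 2.83-fold from 6.31, 6.15 and 6.08 to 7.74, 7.70 and 7.61. The matrix protease gene Mmp14 rose by 0.92 and Arg2, the mitochondrial arginase, by 0.56.

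Interferon-linked genes showed no common direction. Of 29 type I interferon response genes 5 rose and 4 fell (median -0.11), beside 2.44% and 2.61% of all genes. None of the 29 passed limma's test of the difference from PBS. In that test 7 had an unadjusted p under 0.05, as did 10.1% of all genes. Without PBS 3 h replicate 2 that test was passed by 3 genes upward, and without hepcidin 3 h replicate 1 by 1. The antiviral genes Rsad2 and Mx1 rose by 0.95 and 1.00. Rsad2 lost its call without hepcidin 1 h replicates 1 or 2 or any hepcidin 3 h array (adjusted p 0.0573 to 0.0884 in limma), and Mx1 without hepcidin 1 h replicates 1 or 2 or hepcidin 3 h replicates 2 or 3 (adjusted p 0.0756 to 0.11). Irf9, part of the interferon response complex, fell by 0.49. The guanylate-binding protein gene Gbp2 rose by 1.16, from 7.07, 7.10 and 7.08 to 8.32, 8.23 and 8.18, while Irf1, which regulates that family, decayed from 8.21, 8.13 and 8.17 to 7.28, 7.62 and 7.66.

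Regulators of transcription and message decay also turned over. Of 28 immediate early genes 6 fell and 3 rose (2.61% and 2.44% over all genes). Junb, of the AP-1 family, fell by 0.74 and Klf6 by 0.44, while Atf3, a stress-induced repressor, rose by 0.70. Cebpd and Cebpb, C/EBP factors of the acute phase response, rose by 1.27 and 0.54. Of 24 MAP kinase phosphatase and mRNA decay genes 3 rose and 3 fell. Zfp36, tristetraprolin, which speeds decay of AU-rich messages such as Tnf, read 10.74, 10.75 and 10.75 at 1 h and 9.87, 10.19 and 10.12 at 3 h, with a change of 0.31 with PBS. Its relative Zfp36l1 fell by 0.82 and the deadenylase partner Tob1 by 0.41, while the nuclease gene Zc3h12c rose by 0.63.

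Of 18 NRF2, glutathione and thioredoxin genes, 7 rose in limma's test and none fell (median 0.16). At an unadjusted p under 0.05, 9 rose and 2 fell, beside 16.6% of all genes in either direction. Next to Slc7a11 stood Srxn1, which repairs peroxiredoxins, at 0.59, the autophagy adaptor Sqstm1 at 0.56 and the thioredoxin reductase gene Txnrd1 at 0.49. The list also counts 3 smaller rises. Of 21 integrated stress response genes, 4 rose and 4 fell, while 7 fell with PBS. In limma's test of the difference from PBS 2 passed upward (0.523% of all genes) and none downward. At an unadjusted p under 0.05 in that test 13 were higher and none lower, beside 10.1% of all genes in either direction. Chac1, which breaks down glutathione, read 8.28, 8.24 and 8.07 at 1 h and 6.68, 6.95 and 6.95 at 3 h of hepcidin, and with PBS it went from 7.69, 7.77 and 8.00 to 5.92, 6.17 and 6.24. It fell in both, by 1.34 and 1.71. Sesn2, a leucine sensor, fell by 0.57 with hepcidin and 1.09 with PBS, and Slc3a2, the partner chain of Slc7a11, by 0.38 and 0.58.

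Slc7a11 rose and Chac1 fell. Both are targets of ATF4 in other cells, and both carry a composite C/EBP-ATF motif, TGATGNAA, before their starts. The motif was searched on both strands in the same windows and found for 3.38% of the 18380 genes. The windows lie at chr3:50443614-50443694 (minus strand) and chr2:119351034-119351241 (plus) of GRCm38.p6, from RefSeq, with the matches in capitals.
Slc7a11: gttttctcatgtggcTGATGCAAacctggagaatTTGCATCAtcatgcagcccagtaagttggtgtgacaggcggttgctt
Chac1: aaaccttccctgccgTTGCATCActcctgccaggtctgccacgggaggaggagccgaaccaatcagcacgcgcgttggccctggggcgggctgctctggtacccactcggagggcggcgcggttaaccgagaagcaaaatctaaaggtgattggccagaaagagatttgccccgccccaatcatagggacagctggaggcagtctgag
Slc7a11 held 2 matches, 66 and 47 bases before its start, and Chac1 held 1, 193 bases before. Other named genes carried the motif too, Herpud1, Atf3 and Jdp2 among them. It was found for 2.13% of climbing genes, and for 4.22% of later rises and 2.18% of later falls. An antioxidant motif, TGACNNNGC, was also searched. It was found for 12.4% of the 18380 genes and not for Slc7a11.

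Genes of protein folding in the endoplasmic reticulum fell in 4 of 20 cases and rose in 1 (2.61% and 2.44% over all genes). The riser was Herpud1, which serves degradation of misfolded proteins. It read 9.71, 9.37 and 9.41 at 1 h and 10.06, 10.12 and 10.20 at 3 h of hepcidin, whereas PBS arrays went from 9.27, 9.03 and 9.17 to 8.52, 8.32 and 8.28. It is 1 of the 3 genes called in opposite directions. The second, the AP-1 repressor gene Jdp2, rose by 0.60 with hepcidin and fell by 0.55 with PBS, and the third, Abcd2, a peroxisomal fatty acid transporter, fell by 0.73 and rose by 0.43. Of 13 heat shock genes Hspa1b rose by 1.13, beside a value of 0.53 in its near-identical copy Hspa1a that did not pass, and 1 other gene fell. Hspa1a passed with a trended prior (adjusted p = 0.0372), among the brighter genes (0.0381) and without hepcidin 3 h replicate 1 (0.0305), all in limma.

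Of 34 iron handling genes, 4 rose and 2 fell (median 0.03), beside 2.44% and 2.61% of all genes. Slc40a1, the gene of ferroportin, read 8.17, 8.27 and 8.17 at 1 h and 8.87, 8.67 and 8.73 at 3 h of hepcidin, a 1.47-fold rise. With PBS it rose as well, from 8.29, 8.27 and 8.32 to 8.90, 8.87 and 8.95, and the difference of the courses was -0.05 with a 95% interval of -0.26 to 0.16. Slc11a2, the iron importer DMT1, climbed from 8.28, 8.30 and 8.34 to 9.11, 9.11 and 9.17, 1.77-fold, with a PBS change of 0.17. Cp, the copper oxidase that loads iron onto transferrin, rose by 1.11 from a level below the array median, and the zinc and iron importer gene Slc39a14 by 0.52. Steap3, the endosomal iron reductase, fell by 0.66, as did Flvcr1, which exports heme, by 0.52. Tfrc, the transferrin receptor, changed by -0.14 (adjusted p = 0.615 in limma).

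**Figure D4:**
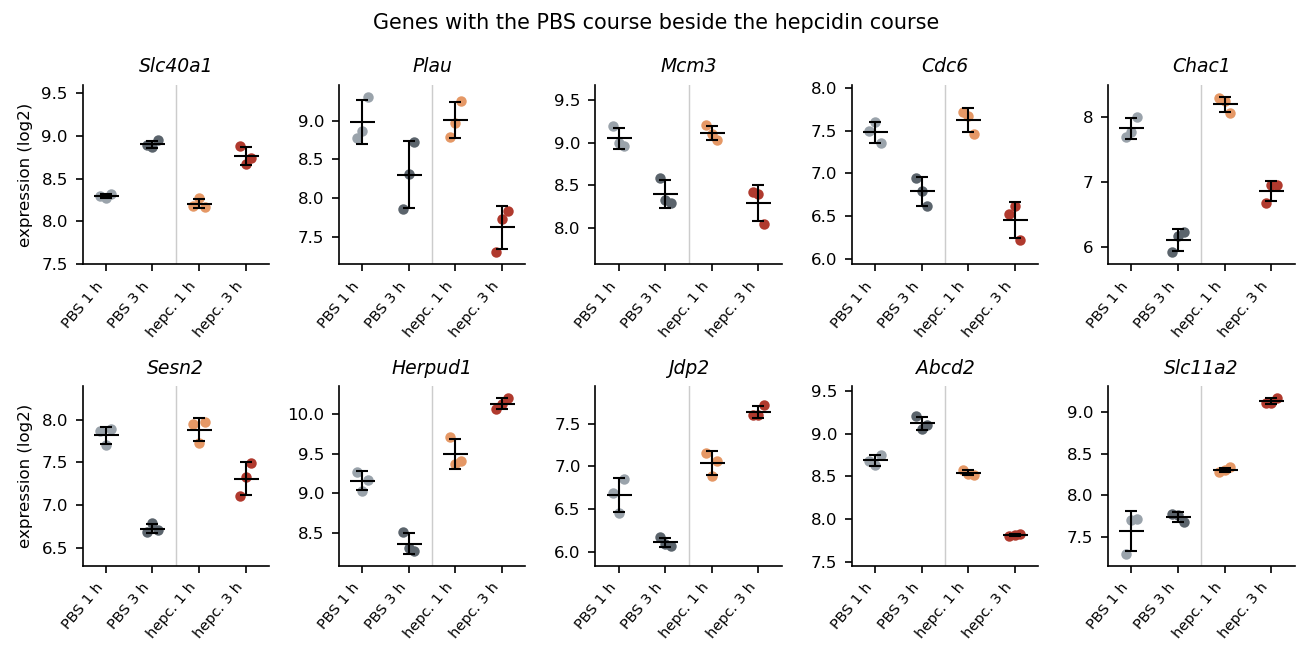
Log2 expression of 10 genes on each of the 12 arrays, with mean ± SD of 3 arrays; PBS groups are on the left of each panel and hepcidin groups on the right, and the y axes differ and do not start at 0. Slc40a1, Plau, Mcm3, Cdc6, Chac1 and Sesn2 move the same way in both, Herpud1, Jdp2 and Abcd2 move in opposite directions, and Slc11a2 rises by 0.82 with hepcidin.

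Of 25 FOXO and growth factor withdrawal genes, 7 fell in limma's test and none rose (median -0.10, PBS median 0.14). At an unadjusted p under 0.05, 9 fell and 3 rose, beside 16.6% of all genes in either direction. Trib1 passed as higher without hepcidin 3 h replicate 1. Irs2, which couples insulin receptors to PI3 kinase, read 6.23, 6.40 and 6.10 at 1 h and 5.15, 5.25 and 5.34 at 3 h, with PBS arrays at 5.79 to 6.32. Fbxo32, a ubiquitin ligase of atrophy, fell by 1.15, Ccng2, a cyclin of quiescence, by 0.83, Sesn1 by 0.60 and Foxo3 itself by 0.58. Of 31 cell cycle genes, 8 fell and none rose, and none passed limma's test of the difference from PBS. At an unadjusted p under 0.05, 14 fell, none rose and 2 differed from PBS. Over all genes 16.6% had such a p for the hepcidin course and 10.1% for the difference. Cdc6, which loads the replicative helicase, went from 7.72, 7.68 and 7.46 to 6.52, 6.62 and 6.22, and with PBS from 7.50, 7.60 and 7.35 to 6.95, 6.80 and 6.62. The helicase genes Mcm3 (-0.82 with hepcidin, -0.65 with PBS), Mcm2 (-0.56 and -0.59), Mcm4 (-0.51 and -0.43) and Mcm6 (-0.43 and -0.31) changed alongside, and Mcm2, Mcm3 and Cdc6 passed with PBS too. Ccnd1, the cyclin that answers to growth factors, fell by 0.75.

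The remaining lists held few calls. Of 22 macrophage identity genes, the lineage factor gene Spi1 rose by 0.30, Cd14 rose, and 3 fell, Mertk among them. Of 18 apoptosis regulators 1 rose and 2 fell, with Bcl2 at -0.76. Of 17 STAT3, SOCS and PIM genes 3 rose and 2 fell, and of 17 interferon regulatory factor and GTPase genes also 3 and 2. Among hypoxia and glycolysis (28 genes), LXR target (15) and ribosome biogenesis genes (25) 1 gene each fell, among alternative activation (19) and p53 response genes (19) 2 each. The p53 response calls were Sesn1 and Sesn2, both already given above. Over all genes 2.61% fell and 2.44% rose. Adm, the hypoxia call, was lost with any 1 hepcidin array left out except 1 h replicate 2. Dkc1, the ribosome biogenesis call, was lost with any 1 array left out except hepcidin 3 h replicate 1. Of the alternative activation calls, Irf4 was lost with any 1 array left out except hepcidin 3 h replicate 2. Mrc1 was lost without any 1 hepcidin 1 h array or hepcidin 3 h replicate 3. The adjusted p in these fits was 0.0509 to 0.183 in limma. None of these 5 lists held a rise, with 1 or 2 members each, and in all 7, higher at an unadjusted p under 0.05 in limma. Over all genes 16.6% had such a p, in either direction. With a trended prior and among the brighter genes 1 gene did rise in the alternative activation list, Clec7a (adjusted p 0.0265 and 0.0409), and 1 in the hypoxia list, Slc2a1, which also passed without PBS 1 h replicate 3. No gene of 20 for cholesterol synthesis passed limma's test, and 8 had an unadjusted p under 0.05 (16.6% over all genes), 6 of them lower. Of these genes Msmo1 and Sqle passed as lower with a trended prior (adjusted p 0.0163 and 0.0326) and among the brighter genes (0.023 and 0.0215), where Mvk passed as higher (0.0366), and Msmo1 also after repeated quantile normalization (0.0461) and without hepcidin 3 h replicate 1 (0.0479). With PBS, 4 ribosome biogenesis genes and 1 cholesterol synthesis gene fell. No ribosome biogenesis gene passed limma's test of the difference from PBS. At an unadjusted p under 0.05 in that test 8 of them were higher and none lower, beside 10.1% of all genes in either direction.

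**Figure D5:**
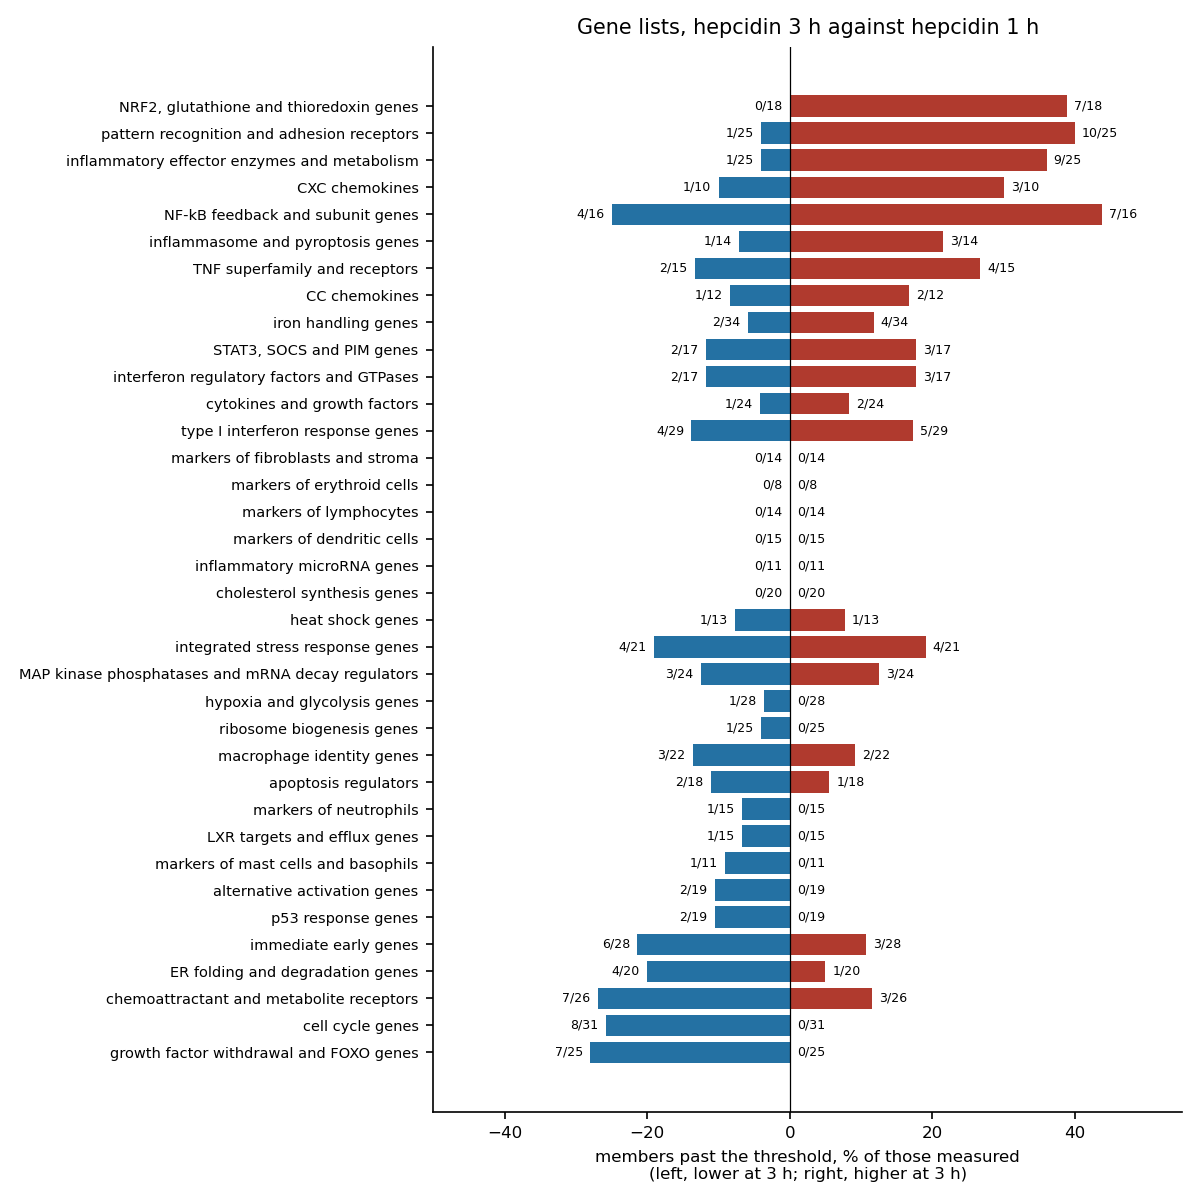
Share of the measured members of each gene list that passed limma's test between hepcidin 1 h and hepcidin 3 h, lower at 3 h to the left in blue and higher to the right in red, with counts beside the bars; over all genes 2.61% fell and 2.44% rose. NRF2, pattern recognition and effector genes lean to the right, and FOXO, cell cycle and chemoattractant receptor genes to the left. The lists were chosen with earlier results of these data known, so the leans describe that choice too.

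Most genes that changed between 1 h and 3 h had not been called at 1 h. The same held for genes in general, of which 0.527% were called higher at 1 h and 0.0324% lower. The 56 climbing genes are among the 601 rises, and the 21 decaying genes among the 645 falls. Of the 601 rises, 544 were not called against PBS at 1 h. Of these, 18 also passed the test as higher with PBS, as did 0.207% of all genes. Of the 645 falls, 623 were not called at 1 h. Of these, 31 also passed as lower with PBS, as did 0.243% of all genes. Passed or not, the PBS change was positive in 473 of the 601 rises and negative in 476 of the 645 falls. The median PBS change over all genes was -0.0037. Without hepcidin 1 h replicate 2 these late genes numbered 326 and 342, without hepcidin 1 h replicate 3 they numbered 324 and 383, and without hepcidin 3 h replicate 3 they numbered 359 and 375.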

How the data were processed

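The deposited table holds log2 expression values of 25429 probe sets on 12 Affymetrix arrays; the authors used RMA and Partek, per the submitters' processing notes, with no versions named and the build not given in the sources used here. That values are log2 was taken from the range of the values and RMA's output. A gene table paired with the platform named 24675 probe sets, 1 per gene, and left 754 unnamed. R 4.3.3 with limma 3.58.1 fitted 4 group means (8 residual and 4.11 prior degrees of freedom), with Benjamini-Hochberg adjustment over all named genes and no filter on dim genes. Errors are moderated standard errors. Precision is limited by the number of arrays, 3 a group, with a median SE of 0.0973 for a change.

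The members, lists and classes were chosen with earlier results of these data known. Genes named are the 15 largest rises and falls with groups apart, the 8 largest 1 h rises of each course, the 8 largest differences of courses in each direction, up to 4 genes of smallest p per list, and 10 fixed genes. Further named genes were chosen after their values were seen: Jdp2, Abcd2, Hcar2, Gpr183, S1pr1, Mcm4, Mcm6, Slc3a2, Ccng2, Cxcl1, Mmp14, Arg2, Nox1, Clec5a, Map3k8, Tlr4, Tnfrsf21, Slc39a14, Flvcr1, Klf6, Nfkbib, Nfkbid, Cybb, Slc2a1, Egln3, Trib1, Bcl6, Cd24a and Mir1933. Listed genes without a named probe set were not analysed here. The procedure was tested on simulated data. Alternatives tried were another prior, a block on the replicate number, quantile normalization, median centring, array weights, brighter genes, all probe sets, a 2-fold margin for holding, only the groups compared, and each array left out.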

Additional observations from a re-analysis of the deposited data

Results flagged for a closer look

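The change from 1 h to 3 h with hepcidin differed from that with PBS in 254 genes by limma's test of the difference between the courses. Of the 194 genes chosen for naming, 65 passed that test, 38 upward relative to PBS and 27 downward. The naming drew in part on this test and on values already seen, so the 65 describe that choice. Over all genes 1.03% passed.

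Upward, the differences on the log2 scale (hepcidin course minus PBS course) were Fpr2 2.77, Cxcl3 2.71, Slc7a11 2.60, Tarm1 2.39, Acod1 2.28, Gpr18 1.76, Fas 1.74, Gpr84 1.68, Tmem176b 1.65, Slco3a1 1.65, Hcar2 1.48, Tmem176a 1.46, Gbp5 1.45, Nox1 1.43, Herpud1 1.42, Lox 1.38, Nos2 1.37, Il1b 1.16, Jdp2 1.15, Mmp14 1.10, Clec4e 1.06, Ets2 1.06, Tnfrsf1b 1.04, Cp 0.98, Sod2 0.96, Tnip1 0.96, Gbp2 0.90, Cebpd 0.88, Tlr1 0.84, Icam1 0.81, Traf1 0.80, Nfkb2 0.73, Slc11a2 0.66, Arg2 0.64, Ccl3 0.58, Cd14 0.57, Cxcl16 0.56 and Sqstm1 0.42.

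Downward, the differences were Nfkbia -0.55, Junb -0.66, Irf1 -0.66, Foxo3 -0.68, Map3k8 -0.72, Tob1 -0.73, Irs2 -0.77, Sesn1 -0.79, Cxcr4 -0.83, Tnf -0.92, S1pr1 -0.94, Zfp36 -1.0, Ier3 -1.03, Lpin1 -1.09, Zfp36l1 -1.10, Gpr183 -1.12, Map2k6 -1.13, Abcd2 -1.16, Mir155hg -1.20, Snx24 -1.28, Lbh -1.29, P2ry1 -1.34, Rnf144b -1.34, Fam214a -1.37, Angptl4 -1.41, Nfkbiz -1.44 and Tnfsf9 -1.78.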

How the results depend on the processing

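With 1 array left out at a time, genes higher at 3 h numbered 364 to 572 and genes lower 357 to 614, with PBS 7 to 60 and 14 to 66, and for the difference of courses 76 to 130 and 61 to 114. Climbing genes numbered 38 to 58, holding 26 to 46, decaying 15 to 20, late rises 324 to 523 and late falls 342 to 596. Of the 1246 calls, 603 were kept whichever array was left out, 305 higher and 298 lower. Of 136 named genes called, 114 kept their call in each of these fits. The other 22 lost it in at least 1 fit. Among them were Adm, Ccl2, Cxcl2, Dkc1, Dnajb9, Ebi3, Fcgr1, Gbp7, Hspd1, Irf4 and Mcl1. The rest were Mefv, Mpo, Mrc1, Mx1, Nfkbia, Nlrp1b, Pdia6, Pim2, Rsad2, Tnf and Tnfaip3.

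PBS calls, higher and lower, were 171 and 148 with a trended and robust prior, 28 and 36 after median centring, 177 and 156 among genes above the median mean, 155 and 130 with array weights, and 4 and 3 in a fit of the PBS arrays alone, while the hepcidin arrays alone gave 312 and 304. The difference of courses gave 204 and 229 with the trended prior, 75 upward after centring and 226 downward among the brighter genes. Late rises numbered 353 after centring. The cause was not tested. The other counts stayed within 1.5 times under these settings.

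No label says whether replicate numbers pair the samples. Same-numbered deviations correlated at -0.005 to 0.246 (median 0.105), over 0.1 in 9 of 18 pairs, and other-numbered ones at -0.219 to 0.174 (median -0.037). All 12 arrays correlated best on average with their own number, a hint from the data and not from the design. The main fit did not treat the numbers as pairs because no label states a pairing. With the replicate number as a block, 692 genes were higher and 837 lower with hepcidin, and 102 and 138 with PBS. The difference of courses then gave 169 upward and 179 downward, and 64 genes climbed, 49 held and 31 decayed. In that blocked fit Hspa1a passed (adjusted p = 0.0118 in limma), as did genes of lists with no call in that direction above: Abca1 (0.00117) and Clec7a (0.0247) higher, Sqle lower (0.0359), 2 hypoxia genes (Egln3, Slc2a1) and 2 FOXO and growth factor withdrawal genes (Bcl6, Trib1) higher, the dendritic cell marker Cd24a lower, and 1 interferon response gene in the difference of courses. Dkc1 (0.0506), the ribosome biogenesis gene that fell, and Irf4 (0.0596) lost their calls.

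Sign changes occurred in named genes that were not called. Cd69 was -0.0016 after centring. With 1 array left out at a time, Cd69 ran from -0.1272 to 0.2184, Ccrl2 from -0.1747 to 0.1678, Pde4b from -0.0272 to 0.2656 and Alas2 from -0.1654 to 0.0258.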

Other observations

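Of the 754 probe sets with no gene name here, 27 were higher and 29 lower at 3 h than at 1 h of hepcidin when all probe sets were fitted with limma, with changes from -1.09 to 2.93 on the log2 scale.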
